A study of Mus musculus with 4 samples.

Results

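The AP-1 transcription factors of the Fos and Jun families, together with the related factor Atf3, were followed in mouse liver before and after partial hepatectomy, with and without Mcu in hepatocytes. The 8 genes were taken by name: Fos, Fosb, Fosl1, Fosl2, Jun, Junb, Jund and Atf3. All 8 had a probe set of their own, out of 19505 named genes on the array, and each had only 1 such probe set. Mcu encodes the pore of the mitochondrial calcium uniporter, the channel that lets calcium into mitochondria.

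There were 4 groups with 1 microarray each, and the series text speaks of pooling 4 biological replicates per genotype. The knockdown mice were C57BL6J males of 10 to 12 weeks with floxed Mcu alleles, given AAV8-TBG-Cre, a virus in which the hepatocyte-directed TBG promoter drives Cre recombinase. The control littermates received AAV8-TBG-Null and carry the genotype label Wild type. Non-parenchymal cells are not targeted by that promoter, so their Mcu is left in place. Surgery took out 70% of the liver 5 weeks after injection. Control and knockdown liver were each taken at 0 h and at 30 h. The labels conflict in 3 places. The genotype label of both knockdown arrays names a floxed gene other than Mcu, against the title, the source label and the treatment protocol, which are followed here. The free-text descriptions of all 4 arrays speak of chronic ethanol feeding, which no other label mentions. That of the knockdown array at 30 h also speaks of 1 h, in conflict with its title and time label. On that array the replication helicase genes Mcm4 and Mcm6 read 2.37 and 2.35 log2 units above the knockdown 0 h array, where the control difference was 4.34 and 4.93. There was no sham-operated group, so removal of liver, anaesthesia and time of sampling cannot be told apart.

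Values are log2 expression after RMA, the method that corrects background, equalises arrays and summarises the probes of a probe set, so a difference of 1 is 2-fold. Each group is 1 array. There is no replicate spread, no difference carries an error, and no p-value is given. Over all probe sets, the log2 level on the array ran from 0.94 to 12.9. As a measure of scale, the absolute difference between paired arrays had a median of 0.33 over all genes for the control response, 0.29 for the knockdown response, 0.26 for the genotypes at 0 h and 0.29 at 30 h. In 90% of genes it stayed below 0.85, 0.78, 0.69 and 0.77 in the same order. These figures mix real differences with noise and are not replicate errors. Mcu itself read 4.77 and 4.30 in control liver at 0 h and 30 h and 2.83 and 2.63 in knockdown liver, which matches the direction of the titles. The 9 measured hepatocyte markers, Alb and Hnf4a among them, averaged between 11.26 and 11.31 on the 4 arrays, so each array carries the labelled tissue.

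AP-1 is a dimer that binds DNA through a basic region and a leucine zipper. Fos proteins pair only with partners such as the Jun proteins, whereas Jun proteins can also pair with themselves, and Atf3 pairs with Jun proteins or itself. Fos, Fosb, Jun, Junb and Atf3 are classic immediate early genes: their transcription needs no new protein synthesis and is transient after growth factors, calcium signals or stress. Jun is known to be required for normal liver regeneration in mice, and the earliest wave of Fos and Jun transcription after hepatectomy comes well before the 30 h sampled here.

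The promoters of these genes are known targets of the same class of factors, and so the stretches before 4 of them are shown: Fos and Fosb, whose levels parted at 30 h, and Jun and Atf3, which were higher at 30 h in both genotypes. Each line gives the 120 bases that end just before the annotated transcription start (RefSeq, GRCm38.p6, 5′ to 3′ on the gene's strand). Capitals mark every match, on either strand, to TGANTCA (the AP-1 element, TRE) and TGACGTCA (the cyclic AMP response element, CRE). They also mark the CRE variants TGACATCA and TTACGTCA and the short CRE core TGACG. The TATA box TATAAA, the box with letters CCAAT and the CArG box bound by serum response factor are marked too.
Fos, chr12:85473770-85473889, plus strand: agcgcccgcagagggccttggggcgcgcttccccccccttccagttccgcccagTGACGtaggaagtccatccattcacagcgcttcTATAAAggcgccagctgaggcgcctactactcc
Fosb, chr7:19310046-19310165, minus strand: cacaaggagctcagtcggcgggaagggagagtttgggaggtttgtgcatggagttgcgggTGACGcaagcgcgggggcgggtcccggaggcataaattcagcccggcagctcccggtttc
Jun, chr4:95052223-95052342, minus strand: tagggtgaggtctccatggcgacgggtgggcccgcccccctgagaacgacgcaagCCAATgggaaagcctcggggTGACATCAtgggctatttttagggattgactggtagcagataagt
Atf3, chr1:191183334-191183453, minus strand: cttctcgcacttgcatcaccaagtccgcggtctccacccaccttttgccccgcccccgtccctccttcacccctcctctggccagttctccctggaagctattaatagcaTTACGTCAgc

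Promoter sequence was held for 7 members, all but Fosl1, and the 250 bases before the start were searched. The core TGACG was found in 4 of 7 (Fos, Fosb, Junb and Atf3), against 17.77% of 32851 promoters. In Fos it lay at -129 to -125 and again at -66 to -62, in Fosb at -60 to -56, and in Junb at -106 to -102. In Atf3 it lay at -7 to -3, inside the longer match to TTACGTCA at -10 to -3, a motif that 0.45% of promoters hold. Jun held TGACATCA at -45 to -38, as 2.93% of promoters do. None of the 7 held the TRE, the full CRE or a CArG match in this window, motifs present in 6.75%, 1.55% and 1.47% of promoters. Fosl2 and Jund held none of the 8 motifs there. These matches describe letters only.

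At 30 h in control liver, Fos and Jun were the highest of the 8 by difference, and 6 of 8 members were above their 0 h level. The members' median difference was 0.50, against -0.01 over all genes. One member, Fos, was at least 2-fold higher, where 4.19% of all genes were, and 0 were at least 2-fold lower, where 2.22% of all genes were. In knockdown liver all 8 members were above their 0 h level; the median was 0.595 against 0.01 over all genes, although the smallest, Junb at 0.02, turned to -0.03 after median centring. There 1 member, Atf3, was at least 2-fold higher (2.72% of all genes) and 0 were at least 2-fold lower (2.01%). Over the 9759 genes on the bright side of the array, where 7 members lie, the median was 0.10 in the control response and -0.04 in the knockdown response. The 2 largest differences were thus in Fos and Jun in control liver, and in Atf3 and Fosb in knockdown liver.

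**Figure D1:**
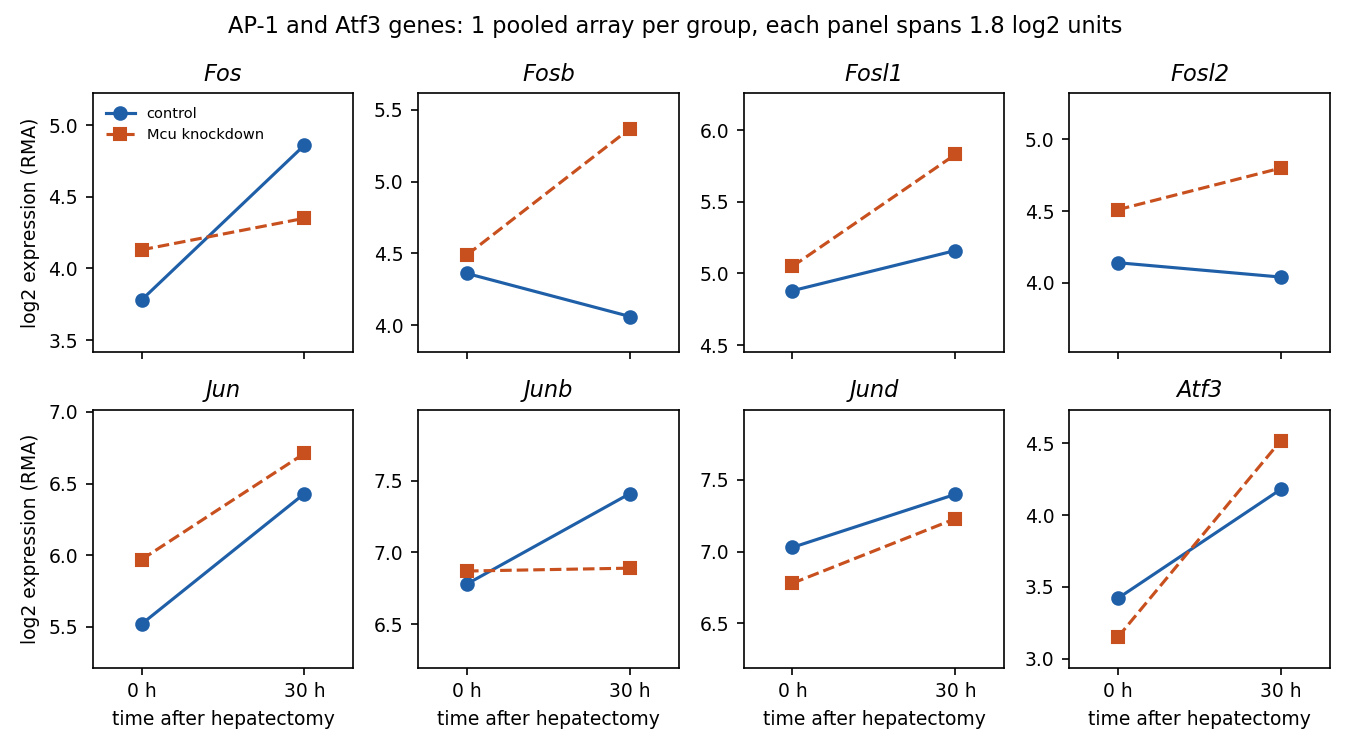
Log2 RMA expression of the 8 genes at 0 h and 30 h, 1 point per pooled array, with circles and solid lines for control and squares and dashed lines for Mcu knockdown. Fosb, Fosl1, Fosl2, Jun and Atf3 were highest on the knockdown 30 h array, while Fos, Junb and Jund were highest on the control 30 h array.

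Fos encodes the founding member of its family. Its level was 3.78 in control liver at 0 h, 4.86 in control liver at 30 h, 4.13 in knockdown liver at 0 h and 4.35 in knockdown liver at 30 h. The control 30 h array stood highest and the control 0 h array lowest, with both knockdown arrays between them. The control response was 1.08 (2.11-fold), which 3.41% of all genes reached, and the knockdown response was 0.22 (1.16-fold), which 31.4% reached. Knockdown minus control was 0.35 at 0 h and -0.51 at 30 h, and the knockdown response minus the control response was -0.86, which 8.41% of genes reached on that side.

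Fosb, a close relative of Fos with a strong activation domain, ran the other way. It read 4.36 and 4.06 in control liver at 0 h and 30 h, and 4.49 and 5.37 in knockdown liver. The first 3 of these lay within 0.43 of each other, and the knockdown 30 h array stood 0.88 above the next one. Knockdown minus control at 30 h was 1.31 (2.48-fold), reached by 105 of 19505 genes (0.54%) and by 0.27% of the 3383 genes within 0.5 log2 units of its mean level. At 0 h the same difference was 0.13. The response was -0.30 in control and 0.88 in knockdown liver, a difference of 1.18 that 3.33% of genes reached.

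Fosl1 and Fosl2 encode Fra-1 and Fra-2, which lack the activation domain of Fos and in many cells accumulate later than it. Fosl1 read 4.88 and 5.16 in control liver at 0 h and 30 h, and 5.05 and 5.83 in knockdown liver. The knockdown 30 h array was again the highest, and the other 3 spanned 0.28. Its response was 0.28 in control and 0.78 in knockdown liver, and its knockdown minus control difference at 30 h was 0.67 (1.59-fold), reached by 7.95% of genes.

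Fosl2 read 4.14 and 4.04 in control liver, and 4.51 and 4.80 in knockdown liver. Both knockdown arrays stood above both control arrays. Knockdown minus control was 0.37 at 0 h and 0.76 at 30 h (1.69-fold), the latter reached by 5.63% of genes, while the responses were -0.10 and 0.29. At 30 h, then, the other 3 Fos family genes were above control in knockdown liver, and Fos was below it.

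Jun, the main partner of the Fos proteins, read 5.52 and 6.43 in control liver at 0 h and 30 h, and 5.97 and 6.71 in knockdown liver. Both 30 h arrays lay above both 0 h arrays, and at each time the knockdown array lay above its control. The response was 0.91 (1.88-fold) in control and 0.74 (1.67-fold) in knockdown liver, reached by 5.24% and 6.36% of genes. Knockdown minus control was 0.45 at 0 h and 0.28 at 30 h, the latter 0.46 after quantile or cyclic loess normalization. The difference between the responses was -0.17, and its sign changed to 0.05 after quantile normalization and 0.075 after cyclic loess.

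Junb, which can restrain Jun and is itself an immediate early gene, read 6.78 and 7.41 in control liver and 6.87 and 6.89 in knockdown liver. Only the control 30 h array stood apart, by 0.52 from the next, and the other 3 spanned 0.11. The control response was 0.63 (1.55-fold), or from 0.40 to 0.65 over the scalings tried, and the knockdown response was 0.02. Knockdown minus control was 0.09 at 0 h (about 0 after cyclic loess) and -0.52 at 30 h, the latter reached by 11.96% of genes and by 14.54% of genes near its level. That 30 h value was -0.34 after quantile or cyclic loess normalization.

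Jund, the Jun protein that is present in most resting cells, read 7.03 and 7.40 in control liver and 6.78 and 7.23 in knockdown liver. Its 30 h arrays were above its 0 h arrays in both genotypes, by 0.37 and 0.45, although the control value was 0.152 after quantile normalization and 0.147 after cyclic loess. Its knockdown minus control was -0.25 at 0 h and -0.17 at 30 h, the latter 0.01 after cyclic loess. Jund spanned 0.62 over the 4 arrays, the narrowest range of the 8, next to 0.63 for Junb.

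Atf3, a stress-induced factor that as a homodimer mostly represses transcription, read 3.42 and 4.18 in control liver at 0 h and 30 h, and 3.15 and 4.52 in knockdown liver. Both 30 h arrays stood above both 0 h arrays, with knockdown outermost at each end. Its response was 0.76 (1.69-fold) in control liver and 1.37 (2.58-fold) in knockdown liver, reached by 7.92% and 1.03% of genes. Knockdown minus control was -0.27 at 0 h and 0.34 at 30 h, and the responses differed by 0.61, which 16.22% of genes reached. Its mean over the 4 arrays, 3.82, was just under the median of all gene means, 3.83, so it is the 1 member on the dim side of the array, where folds are compressed; the other 7 were on the bright side.

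**Figure D2:**
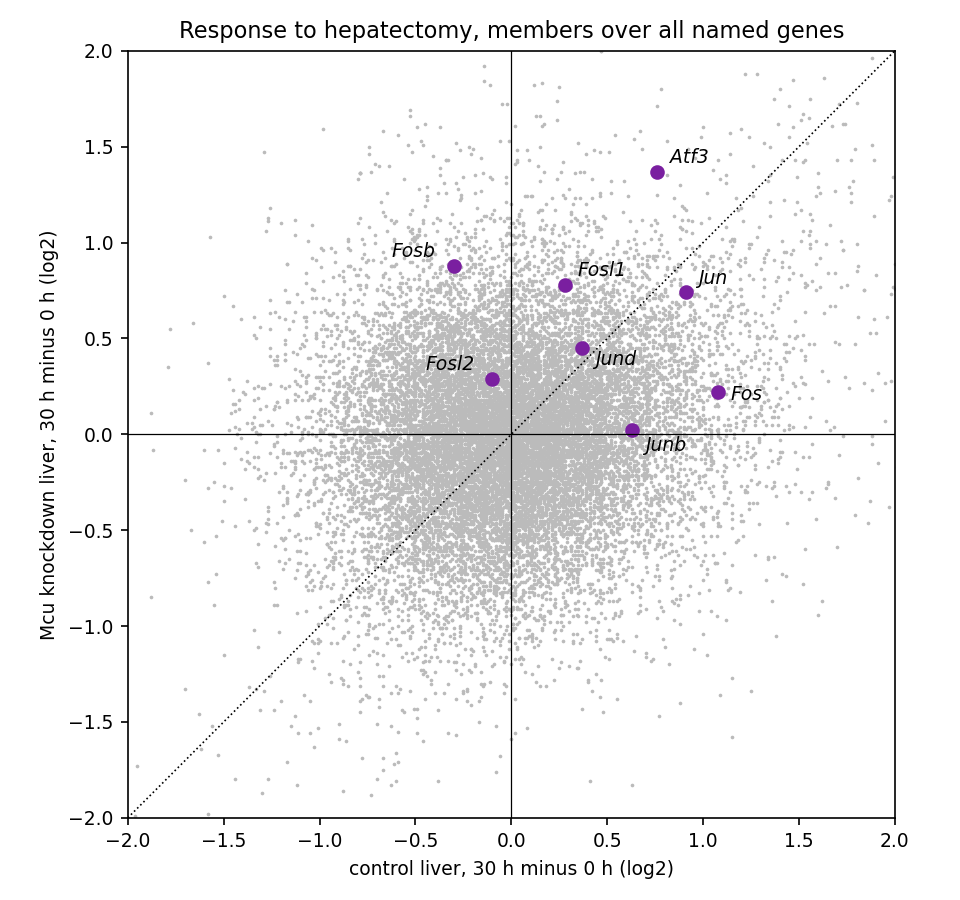
Difference between 30 h and 0 h (log2) in control liver on the x axis and in Mcu knockdown liver on the y axis; grey points are all named genes within the axes, purple points the 8 members, the dotted line marks equal responses, and the axes hold 19350 of 19505 genes. Fosb (-0.30 and 0.88) and Fos (1.08 and 0.22) lie on opposite sides of the dotted line, while Jun (0.91 and 0.74) and Jund (0.37 and 0.45) lie near it.

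At 0 h, 6 of 8 members were higher in knockdown liver, with a median of 0.15 (0.01 over all genes), and 0 were at least 2-fold higher or lower, against 1.45% and 1.25% of all genes. All 8 differences, from -0.27 for Atf3 to 0.45 for Jun, lay inside the range of 90% of genes. At 30 h, 5 of 8 were higher and 3 lower, with a median of 0.31 (0.00 over all genes). Fosb alone was at least 2-fold higher, where 2.07% of all genes were, and 0 were at least 2-fold lower, where 1.86% were. In the difference between the responses, 1 member (Fosb again) was at least 2-fold higher (6.0% of all genes) and 0 at least 2-fold lower (5.82%). These comparisons share arrays, so they are not separate evidence.

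**Figure D3:**
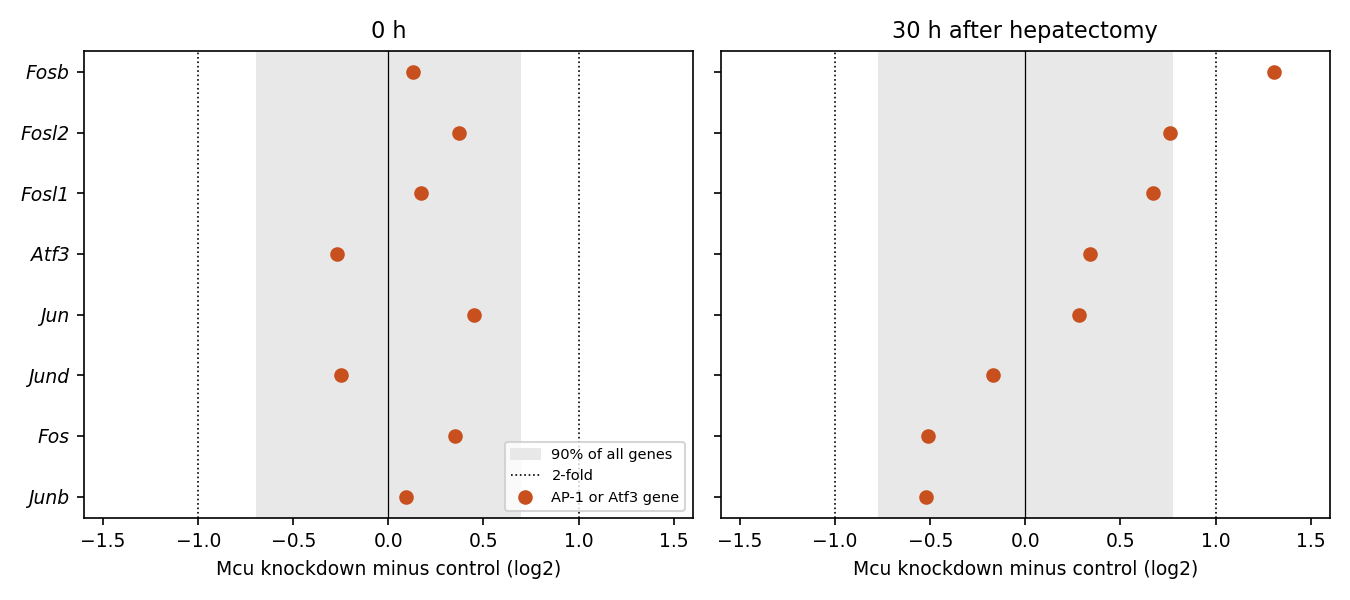
Mcu knockdown minus control (log2) for the 8 genes at 0 h (left) and 30 h (right), 1 array per group; the grey band holds 90% of all genes (0.69 and 0.77 to either side of 0) and dotted lines mark 2-fold. At 0 h every member lies in the band, and at 30 h Fosb lies beyond 2-fold.

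Genes that act upstream of AP-1 were mostly lower in knockdown liver at 30 h, where 5 of the 8 members were higher and 3 (Fos, Junb and Jund) lower. Of the 25 measured upstream kinases and transcription factors (among them kinases of the JNK and p38 branches, ternary complex factors and their partners), 21 gave a negative knockdown minus control value at 30 h (median -0.32), whereas 49.2% of all genes gave a positive one. The count was 22 after median centring and 19 after quantile or cyclic loess normalization. Of the 25, 4 were lower by 2-fold or more (1.86% of all genes) and 0 higher by as much (2.07%). Elk3, a ternary complex factor that acts on the Fos promoter with serum response factor, read 3.42 and 4.69 in control liver and 3.22 and 3.04 in knockdown liver. Map3k5, the stress kinase ASK1 upstream of JNK and p38, read 4.83 and 5.61 in control liver and 4.48 and 3.98 in knockdown liver. Map3k1 differed by -1.16 and Map2k4, a kinase that phosphorylates JNK, by -1.02. Over all bright genes the median at 30 h was -0.11. In the same comparison 8 of 10 Kupffer cell markers (median -0.27) and 7 of 10 sinusoidal endothelial markers (median -0.30) were lower, and their part in the list's values was not tested. At 0 h the list had a median of 0.02, with 0 of 25 past 2-fold either way. Of all genes, 1.45% were at least 2-fold higher at 0 h and 1.25% lower.

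Feedback inhibitors of the same pathways, among them some that dephosphorylate the kinases or destroy early mRNAs, moved with hepatectomy in a few members. Dusp8, a phosphatase of JNK and p38, was 1.56 higher at 30 h in control liver and 1.06 higher in knockdown liver. Dusp6, another MAP kinase phosphatase, was 1.16 and 1.02 higher. Those were the 2 of 21 past 2-fold in each response, where 4.19% of all genes were at least 2-fold higher in control and 2.72% in knockdown liver. The control count was 1 after quantile or cyclic loess normalization, and the knockdown count was 1 after median centring. In knockdown minus control at 30 h, 0 of 21 passed 2-fold, where 2.07% of all genes were higher and 1.86% lower by as much. The list's median there was -0.18, or -0.015 after quantile or cyclic loess normalization.

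Other leucine zipper factors, only some of which can pair with AP-1 proteins, showed no common direction. Of 23 measured, 13 were higher and 10 lower in control liver at 30 h, and 9 and 14 in knockdown liver. In control liver 1 was at least 2-fold higher (4.19% of all genes) and 2 lower (2.22%). In knockdown liver 1 was higher (2.72%) and 1 lower (2.01%) by as much. Batf2 had the lowest control value, -1.14, against -0.14 in knockdown liver. Cebpd, a factor of the acute phase, was higher by 1.41 in control and 1.01 in knockdown liver, and Cebpa, which restrains hepatocyte proliferation, differed by -1.05 and -1.39. Knockdown minus control at 30 h had a median of -0.01, with 0 past 2-fold (2.07% of all genes higher and 1.86% lower).

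Of 38 other immediate early genes, all measured, 26 were higher at 30 h in control liver (median 0.23, 4 at least 2-fold higher and 1 lower) and 27 in knockdown liver (median 0.35, 7 at least 2-fold higher and 1 lower). Of all genes, 49.0% were higher in control and 50.2% in knockdown liver, 4.19% and 2.72% at least 2-fold, and 2.22% and 2.01% were at least 2-fold lower. Egr1, a zinc finger factor induced through the same serum response pathway as Fos, read 6.04 and 7.93 in control and 6.13 and 7.56 in knockdown liver. Myc, by contrast, read 4.43 and 4.56 in control and 3.88 and 5.54 in knockdown liver, and Tnfaip3, a feedback inhibitor of NF-kappaB, 3.45 and 3.62 against 3.37 and 4.99. The knockdown 30 h array was the highest for Myc and Tnfaip3, as for Fosb, and the control 30 h array for Egr1, as for Fos. The knockdown response was 1.43 for Egr1 and 0.22 for Fos. Egr2, Egr3 and Egr4 were higher in knockdown than in control liver at 30 h, by 0.90, 0.58 and 0.26. Knockdown minus control at 30 h had a median of 0.12, or 0.03 after median centring. In that comparison 1 gene was at least 2-fold higher (Tnfaip3) and 1 at least 2-fold lower (Plk2, -1.61). The shares of all genes there were 2.07% and 1.86%.

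Genes known as AP-1 targets in various tissues were listed too, and 24 were measured. In control liver at 30 h, 6 of 24 were at least 2-fold higher, led by the metallothioneins Mt1 (3.73) and Mt2 (3.52), followed by Timp1 (1.33), an inhibitor of matrix proteases, and Cd44 (1.29), a hyaluronan receptor. In knockdown liver 2 of 24 were, Mt2 (6.01) and Mt1 (4.83). In each genotype 1 of the 24 was at least 2-fold lower. The shares of all genes were 4.19% and 2.72% for higher and 2.22% and 2.01% for lower. Mt2 started lower in knockdown liver, at 6.02 against 8.15 at 0 h, and read 12.03 and 11.67 at 30 h. Timp1 and Cd44 started higher there. Timp1 read 2.36 and 3.69 in control and 3.24 and 4.18 in knockdown liver, and Cd44 2.51 and 3.80 against 3.66 and 3.64. Their control 0 h values were dim, at percentiles 16.9 and 20.8 of that array. At 0 h, 3 of 24 were at least 2-fold higher in knockdown liver (1.45% of all genes) and 1 lower (1.25%). At 30 h the list's median of knockdown minus control was 0.10, or 0.01 after median centring. In that comparison 0 of 24 were at least 2-fold higher (2.07% of all genes). Nqo1 (-1.10) was the 1 at least 2-fold lower (1.86%). Among 19 genes of the integrated stress response, the programme that induces Atf3 with Atf4 and Ddit3, 0 were past 2-fold in control liver. Chac1, a glutathione-degrading enzyme and ATF4 target, read 3.60 and 2.89 in control and 3.15 and 4.19 in knockdown liver. It was the only one of the 19 past 2-fold in knockdown minus control at 30 h (1.30). Of all genes, 2.07% were at least 2-fold higher there and 1.86% lower. The list's median was 0.09, or 0.00 after median centring. Heat shock genes, which respond to handling and protein damage, were lower in knockdown liver at 30 h in 6 of 9 (median -0.39). The 3 higher were Hspa1a (0.27), Hspa1b (0.25) and Bag3 (0.08). Past 2-fold were 0 of 9, where 2.07% of all genes were higher and 1.86% lower by as much.

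**Figure D4:**
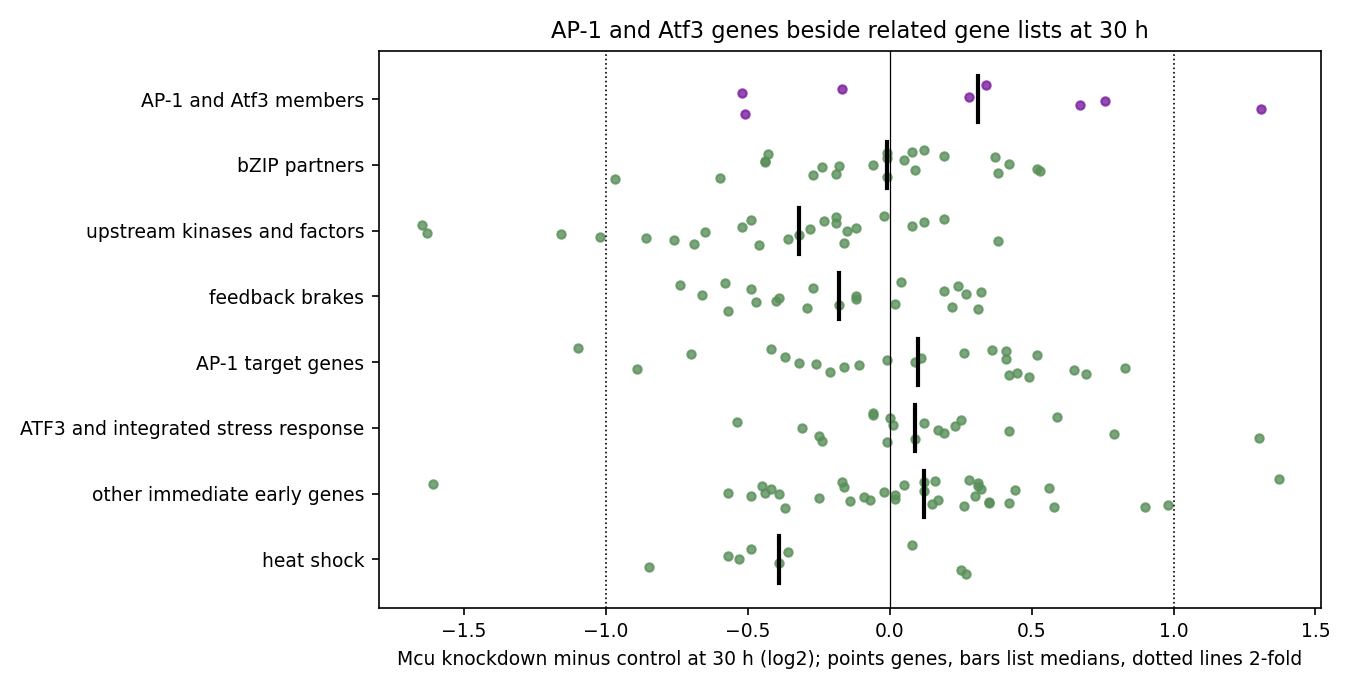
Mcu knockdown minus control at 30 h (log2), 1 point per gene, for the 8 members and for 7 related gene lists; black bars are list medians and dotted lines mark 2-fold. The members' median lies at 0.31, that of the upstream kinases and factors at -0.32, and that of the other immediate early genes at 0.12.

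For the 1156 genes with TGANTCA the median was -0.055 in the control response and 0.06 in the knockdown response, and for knockdown minus control it was -0.02 at 0 h and 0.08 at 30 h. For the 356 genes with TGACGTCA the same medians were 0.13, 0.04, 0.055 and -0.07. All genes had -0.01, 0.01, 0.01 and 0.00, and the genes on the bright side of the array 0.10, -0.04, 0.06 and -0.11. Genes with the TATA box TATAAA had -0.06, 0.03, -0.02 and 0.07. The values for TGANTCA lay near these, and those for TGACGTCA mostly near the bright genes, so neither set is particular to its motif.

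Markers of other liver cells also differed between these arrays. In a piece of liver, fewer cells of a type and less RNA per cell cannot be told apart. The mean log2 level of the 10 Kupffer cell markers was 5.15 and 5.78 in control liver at 0 h and 30 h and 5.54 and 5.47 in knockdown liver, an order in which the control 30 h array is highest, as for Fos and Junb. That of the 10 sinusoidal endothelial markers was 4.77, 4.78, 5.08 and 4.49, lowest on the array where Fosb was highest. Stellate cell markers averaged 4.59, 4.82, 5.01 and 4.75, and the 9 neutrophil markers 2.95, 3.09, 3.05 and 3.24. Lymphocyte markers averaged between 2.91 and 3.11, cholangiocyte markers between 3.14 and 3.48, and erythroid markers between 4.16 and 5.06. The part of these cells in the differences of the members and of the other lists was not tested.

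Genes whose 4 values ran most like those of a member were found by the Euclidean distance of the 4 values after subtracting each gene's mean, over 17116 genes, for the 4 members that spanned at least 1 log2 unit. With 4 points, close neighbours are easily found. Nearest to Fos were Snx5, Ndel1 and H4c14 (distances 0.03 to 0.07, where the median over all genes was 0.90). Nearest to Jun were Acnat2, Rnf208 and Atp9a (0.03 to 0.10, median 1.00). Nearest to Fosb were Krtap5-1, Cypt1 and Isl1 (0.06 to 0.09, median 1.09), genes known from hair, sperm and neurons or pancreatic islets rather than liver. Atf3 had no neighbour as close: Slc6a8, the creatine transporter, Pptc7, a mitochondrial phosphatase, and Eif2b4, a subunit of the translation factor eIF2B, lay at 0.169 to 0.185 (median 1.19).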

How the data were processed

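The series text and labels describe 1 array per group. The authors computed the deposited log2 values of each probe set by RMA; per the submitters' processing notes the program was Affymetrix Expression Console. Its version is not given in the sources used here. Of 22206 probe sets, 19572 had 1 gene symbol in the platform annotation, and the 2634 without a name were set aside. Entrez IDs of all 19572 matched the GRCm38.p6 annotation. A gene took its brightest probe set by mean over the 4 arrays, giving 19505 genes. Differences were computed in Python 3.11.15 with pandas 2.3.3, and normalizations in R 4.3.3 with limma 3.58.1. Counts used a 2-fold rule over all named genes, with no filter on dim values. The counting step was tested on simulated data. Precision is limited by the number of arrays.

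The members, the gene lists, the 5 comparisons and the alternatives (other normalizations, other size rules, averaged probe sets, bright genes only) were chosen with earlier results of these data known. Named genes were all members, up to 4 genes a direction past 2-fold in each list, and the 3 genes nearest to each member; the text gives a selection of them. Promoter sequences are from RefSeq. One entry among the labels is not reported here.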

Additional observations from a re-analysis of the deposited data

Results flagged for a closer look

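For 5 of the 8 genes, the same contrast pointed in opposite directions on the 2 pairs of arrays, with 1 array per group. The difference was not tested, since no group has a replicate. The rule asks only for opposite signs, however small the values, and its share over all genes was not counted. The count of 5 is therefore not a result about these genes. Fosb was lower at 30 h in control liver and higher in knockdown liver, and its responses differed by 1.18. Fosl2 did the same with a difference of 0.39. Atf3 was lower in knockdown than in control liver at 0 h and higher at 30 h, a difference of 0.61. Fos and Junb were higher in knockdown liver at 0 h and lower at 30 h, with differences of -0.86 and -0.61, the latter -0.35 after quantile normalization and -0.33 after cyclic loess. For Junb the 0 h value was 0.09, and it became -0.003 after cyclic loess, where both times then point the same way.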

How the results depend on the processing

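No paired analysis was possible because each group is 1 array. With no replicates, a median is counted as moved past 0.1. The members' median in the control response was 0.28 after quantile normalization, 0.30 after cyclic loess and 0.37 over the 7 bright members. In the knockdown response it was 0.45 over the bright members. In the difference between the responses it was 0.36 after quantile normalization, 0.37 after cyclic loess and 0.08 over the bright members. With a 1.5-fold rule, 4 members were higher in the control response, 4 in the knockdown response, 3 in knockdown minus control at 30 h, and in the difference between responses 2 were higher and 2 lower. With a 3-fold rule 0 members passed in any comparison. The shares of all genes under the 1.5-fold and 3-fold rules were not counted, so these counts show only how the 2-fold counts depend on the rule. Over bright genes 0 members were at least 2-fold higher in the knockdown response, since Atf3 is left out. Single values shifted by at most 0.28, and 5 changed sign, all of 0.17 or less in size: Junb in 2 comparisons, Jun in the difference between responses under both cyclic loess and quantile normalization, and Jund at 30 h. The cause was not tested. Averaging probe sets could not change a member's value, since each member has only 1, so it is no check here.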
